A study of Mus musculus with 6 samples.

Results

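The genes described here are 38 genes of mature oligodendrocytes and of the myelin they make, chosen by symbol from a list of such genes. All 38 were found among the 18058 genes of the deposited table, and all 38 averaged 0.1 CPM or more over the 6 libraries (read counts scaled to library size), as did 16762 genes in all. RNA sequencing was run on brainstem tissue of uninjected, untreated mice aged 1 month. There were 3 wild type (WT) animals of strain C57BL/6J and 3 Rag1-/- animals (B6.129S7-Rag1tm1Mom/J), and each library came from its own mouse. Rag1-/- mice carry a germline loss of Rag1, which lymphocytes need to rearrange their antigen receptor genes, in every tissue, and lack mature T and B cells. The comparison asks how the brainstem transcripts of mice of this line, which are without these lymphocytes, differ from those of WT mice. The strain names differ as well, and strain background cannot be told apart from the loss of Rag1 here.

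Oligodendrocytes wrap the axons of the central nervous system in myelin, a stack of membrane layers rich in cholesterol and galactolipids that insulates the axon and speeds conduction. They arise from precursor cells, pass through a premyelinating stage and then switch on the genes of the myelin sheath under the factors Sox10 and Myrf. The brainstem holds long ascending and descending tracts, and its myelin forms early in postnatal life.

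Rag1 itself went against the genotype labels: it was measured at 0.246 ± 0.137 CPM in WT and at 3.18 ± 0.750 CPM in those labelled Rag1-/- (SD, n = 3, as for every ± below). Values summed over exons do not show whether the disrupted part of a gene is transcribed, so the groups are named below by their labels. Estimated depth was between 31600000 and 46400000 reads, so that 3 reads stood for 0.0646 to 0.0950 CPM. The least abundant of the 38 genes, Trim59, had 558 reads in its lowest library, a counting error of 4.23%, and counting error was lower for the others. Xist, a transcript of female cells, was above 100 CPM in WT replicates 1 and 2 and in no other library. A term for Xist in the model, used below, leaves WT replicate 3 as the only WT library to compare with. A gene that passes or misses a threshold with that term therefore does so on that library. Pituitary hormone transcripts summed to 3.45, 57.3 and 657 CPM in the WT libraries and to 2.72, 5.39 and 2.76 CPM in those labelled Rag1-/-, and choroid plexus transcripts to 978, 1235 and 488 and to 554, 633 and 589.9 CPM, in order of replicates 1, 2 and 3, as are all values by library below. WT replicate 3 thus stood apart by its pituitary transcripts.

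Most of the myelin membrane and surface genes, and 3 of the 6 cytoskeletal genes, were higher in the brainstem libraries labelled Rag1-/-, by 9.53% to 28.4% of the WT level for those past the threshold used below. Of the 38 genes, 20 were higher at p of 0.05 or less without adjustment (limma-trend), and 0 were lower. The study's methods use this p together with a minimum fold change, which none of the 38 genes reached. This is 52.6% of the genes, against 2.27% of all tested genes higher and 9.29% lower at that threshold. Among the 6533 genes at least as abundant as the least abundant of the 38, the share that was higher was 3.64%. None of the 38 had an adjusted p under 0.05 in limma-trend with Benjamini-Hochberg adjustment over all genes, where 0.0477% of all genes did. The smallest was that of Sirt2, 0.0523. The median log2 fold change (libraries labelled Rag1-/- minus WT) was 0.17 over the 38 genes and -0.051 over all tested genes, and 35 of the 38 were above 0, or 92.1%, against 32.3% of all tested genes. Without WT replicate 3, 29 were above 0, and without replicate 3 labelled Rag1-/-, 28 were. For 20 of the 38, every library labelled Rag1-/- lay above every WT library, as was the case for 3.98% of all tested genes. These were the 20 genes of the first count with Trim59 in place of Ugt8a.

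Most tested genes were lower on this scale, and that balance depended on the scaling. The deposited values gave 380 genes higher and 1558 lower, median-of-ratios rescaling gave 846 and 693, and quantile normalization gave 855 and 640. The count of the 38 genes that were higher was 20, 22 and 21 under the same scalings, with 0 lower in each, and 35, 36 and 36 of them were above 0. In whole tissue, more cells of a type and more RNA per cell cannot be told apart.

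**Figure D1:**
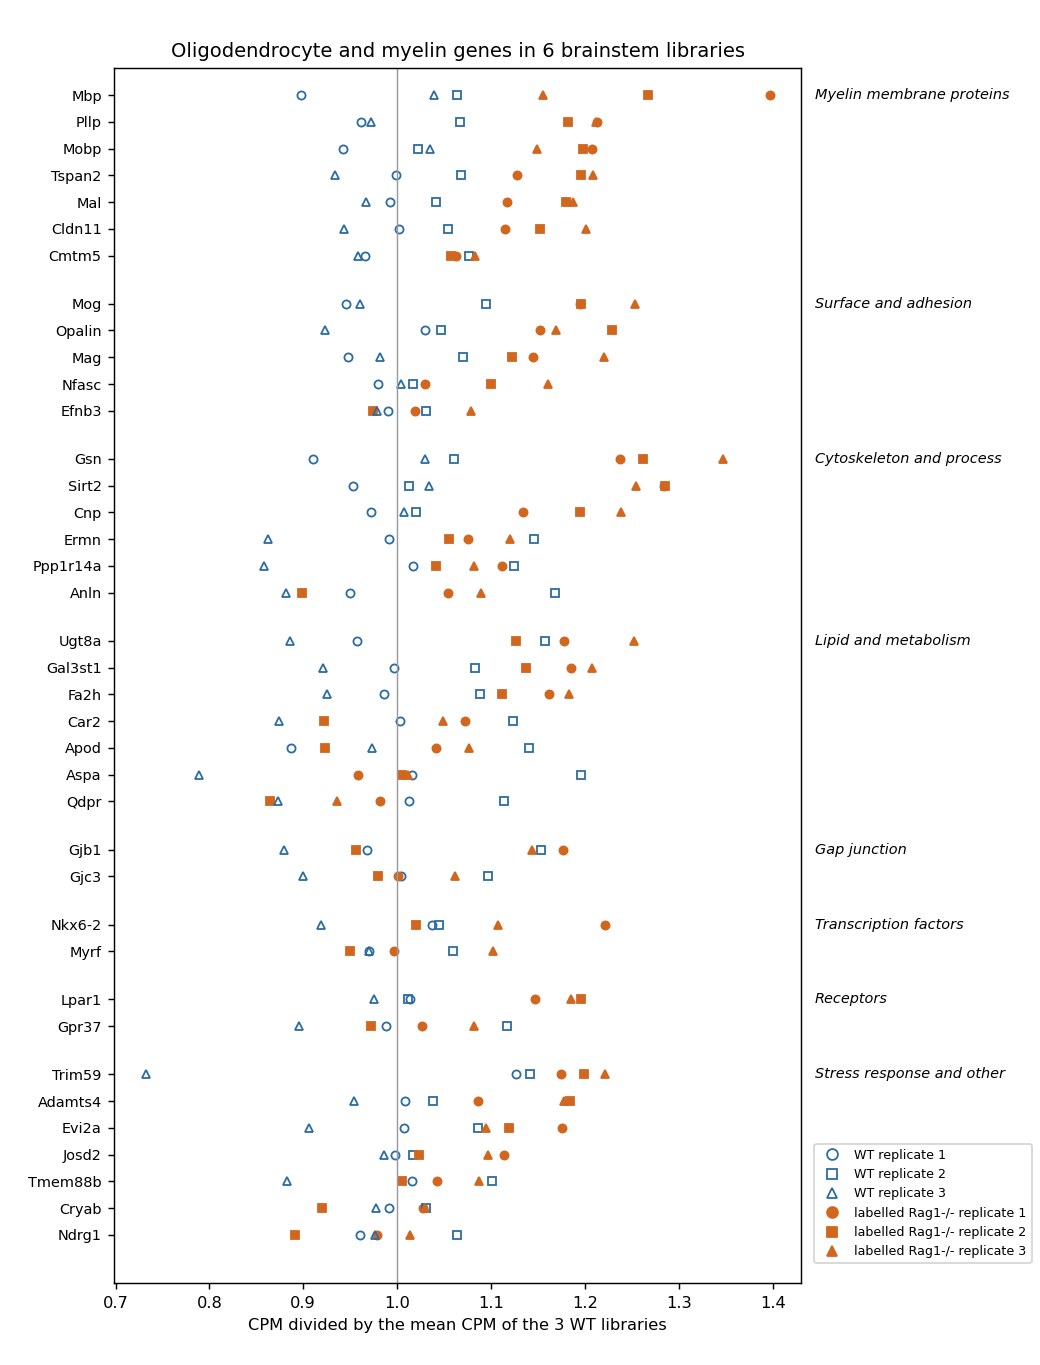
CPM of each of the 38 genes in each of the 6 libraries, divided by the mean of the 3 WT libraries, on a linear axis, with open blue symbols for WT, filled orange symbols for the libraries labelled Rag1-/- and the shape of the symbol for the replicate. The orange symbols lie to the right of all blue ones for Mbp, Mog, Cnp, Sirt2 and 16 other genes, while they mix with the blue ones for Myrf, Aspa, Car2 and Qdpr.

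Summed over the 38 genes, the libraries held 18313, 20642 and 19370 CPM in WT and 23956, 22896 and 22626 CPM where labelled Rag1-/-. The groups did not overlap, and the sums averaged 19442 ± 1166 and 23159 ± 703 CPM, a ratio of 1.19. Mbp alone makes up a large share of this sum, and without it the means were 11423 ± 598 and 12952 ± 355 CPM, a ratio of 1.13. As a share of all deposited CPM, the 38 genes held 2.42% ± 0.145 in WT and 2.92% ± 0.0988 in the libraries labelled Rag1-/-.

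Per kilobase of transcript, the scale on which genes can be set beside each other, Mbp had the highest WT level of the 38, with 4145 ± 373 CPM per kb. Mobp followed with 1938 ± 97.7, then Cnp with 623 ± 15.4 and Mal with 575 ± 21.6 CPM per kb. Each of these levels was set apart from the next by more than its SD. Cldn11 and Tspan2, at 514 ± 28.3 and 512 ± 34.4 CPM per kb, did not differ beyond their spread. Mag had 366 ± 23.0 and Mog 266 ± 21.8 CPM per kb, and Apod, Qdpr and Cryab lay together at 249 ± 32.0, 245 ± 29.6 and 239.8 ± 6.51. The lowest was Trim59, with 7.45 ± 1.73 CPM per kb. The length used is the median over the protein-coding transcripts of a gene in GENCODE M21, which is short for Mobp (498 bases), so its place in the order may depend on that choice.

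The promoters of genes that were higher together are shown for the 5 genes of lowest p with a single window in the RefSeq table among those that could be shown, since myelin genes are known targets of Sox10 and Myrf. Each window runs from 250 bases before to 50 bases after the start of the gene on GRCm38.p6 and is written along the strand of the gene. Capitals mark matches to the Sox core ACAAAG or ACAATG and to the Myrf core CTGGCAC or CTGGTAC, searched on both strands, with a match on the other strand shown as its reverse complement. The windows are chr7:28766502-28766801 (+ strand) for Sirt2, chr8:94696193-94696492 (- strand) for Pllp, chr17:37023349-37023648 (- strand) for Mog, chr9:120149492-120149791 (+ strand) for Mobp and chr11:100574689-100574988 (+ strand) for Cnp.
Sirt2: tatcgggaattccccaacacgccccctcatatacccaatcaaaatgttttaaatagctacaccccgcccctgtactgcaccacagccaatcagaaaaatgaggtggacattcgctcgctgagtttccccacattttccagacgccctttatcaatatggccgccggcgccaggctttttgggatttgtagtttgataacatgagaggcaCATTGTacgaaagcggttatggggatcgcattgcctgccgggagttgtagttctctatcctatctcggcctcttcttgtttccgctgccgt
Pllp: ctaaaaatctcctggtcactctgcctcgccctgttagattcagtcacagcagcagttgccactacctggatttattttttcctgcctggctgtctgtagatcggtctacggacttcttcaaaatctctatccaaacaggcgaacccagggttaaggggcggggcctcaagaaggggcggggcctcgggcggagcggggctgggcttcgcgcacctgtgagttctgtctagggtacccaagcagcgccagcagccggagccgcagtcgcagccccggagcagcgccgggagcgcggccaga
Mog: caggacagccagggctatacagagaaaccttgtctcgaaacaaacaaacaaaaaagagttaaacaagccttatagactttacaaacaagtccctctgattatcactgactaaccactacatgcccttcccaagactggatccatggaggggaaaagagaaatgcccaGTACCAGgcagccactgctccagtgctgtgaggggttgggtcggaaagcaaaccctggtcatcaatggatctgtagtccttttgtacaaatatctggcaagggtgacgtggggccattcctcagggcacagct
Mobp: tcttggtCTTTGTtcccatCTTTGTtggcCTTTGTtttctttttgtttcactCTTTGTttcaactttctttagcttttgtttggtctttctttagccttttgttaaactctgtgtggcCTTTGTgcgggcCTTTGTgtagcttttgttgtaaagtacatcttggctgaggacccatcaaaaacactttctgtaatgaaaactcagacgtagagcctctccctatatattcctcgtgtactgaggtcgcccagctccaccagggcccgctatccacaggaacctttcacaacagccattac
Cnp: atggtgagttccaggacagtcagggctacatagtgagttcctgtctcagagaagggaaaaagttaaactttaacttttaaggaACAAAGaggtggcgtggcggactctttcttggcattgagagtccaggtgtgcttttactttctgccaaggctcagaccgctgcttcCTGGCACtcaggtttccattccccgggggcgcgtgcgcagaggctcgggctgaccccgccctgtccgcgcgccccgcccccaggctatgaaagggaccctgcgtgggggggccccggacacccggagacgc

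The Sirt2 window held 1 Sox match, 41 bases before the start, and the Mog window 1 Myrf match, 83 bases before it. The window of Mobp held 6 Sox matches, all on the other strand, between 243 and 120 bases before the start. That of Cnp held 1 Sox match at 167 and 1 Myrf match at 81 bases before the start, while neither set of letters is in the window of Pllp. Of the 38 genes, 29 had 1 or more windows. A Sox core was in a window of 13 of the 29 (44.8%), against 31.7% of all 27025 genes with a window, and a Myrf core in those of 5 of the 29 (17.2%), against 8.10%. Per window the shares were 39.5% against 28.6% for Sox and 14.0% against 7.10% for Myrf. The 5 genes with a Myrf core were Cnp, Lpar1, Mag, Mog and Opalin. A match is a run of letters and not a measured binding site.

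The 7 proteins of the myelin membrane included 6 genes that were higher, with a median log2 fold change of 0.24. Mbp, at chr18:82475123-82585637 of mm10, encodes myelin basic protein, which holds the cytoplasmic faces of the membrane layers together. Its level was 7193, 8529 and 8333 CPM in WT and 11199, 10160.0 and 9263 CPM in those labelled Rag1-/-. The groups did not overlap, the libraries labelled Rag1-/- spread more widely than the WT ones, and replicate 1 was the highest. The log2 fold change was 0.35 (SE 0.11, limma-trend adjusted p = 0.341). Under quantile normalization, which gives the most abundant genes of each library the same values, it was 0.042, and with a term for Xist it was 0.29, neither of which passed p of 0.05.

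Mobp, at chr9:120149742-120176091, whose window held the 6 Sox matches shown above, encodes another abundant basic protein of compact myelin. It was measured at 909, 987 and 999 CPM in WT and at 1165, 1156 and 1109 CPM in those labelled Rag1-/-, a log2 fold change of 0.25 (SE 0.053, limma-trend adjusted p = 0.268). The gap between the groups was wider than the range within either. Pllp, at chr8:94674895-94696242, encodes plasmolipin, a proteolipid of myelin membrane domains. It stood at 182, 202 and 184 CPM in WT and at 229.6, 224 and 229.5 CPM in those labelled Rag1-/- (log2 fold change 0.27, SE 0.048, limma-trend adjusted p = 0.212). The libraries labelled Rag1-/- were all above the WT range. An opposite-strand gene, Gm45767, covers 50.4% of the exon bases of Pllp, and whether the counting used strand is not given in the sources used here, so reads of the pair may be mixed.

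Mal encodes a proteolipid that takes part in sorting membrane to myelin. Its level was 931, 977 and 907 CPM in WT and 1048, 1107 and 1114 CPM in those labelled Rag1-/-, a log2 fold change of 0.22 (SE 0.051). Tspan2, a tetraspanin of oligodendrocytes, was at 492, 526 and 459.6 CPM and at 555, 588 and 595 CPM in the same groups (log2 fold change 0.24, SE 0.058). Neither gene overlapped between the groups. Cldn11 encodes the claudin of the tight junctions that seal the myelin sheath. Its level was 964, 1014 and 908 CPM in WT and 1073, 1108 and 1155 CPM in those labelled Rag1-/- (log2 fold change 0.21, SE 0.057). Here too all libraries labelled Rag1-/- were above all WT ones. The limma-trend adjusted p was 0.300 for Mal, 0.312 for Tspan2 and 0.331 for Cldn11. The remaining gene of the group, Cmtm5, which encodes a membrane protein enriched in oligodendrocytes, had a log2 fold change of 0.10 (95% interval -0.022 to 0.21, limma-trend adjusted p = 0.504). It passed p of 0.05 under median-of-ratios rescaling, under quantile normalization and, at 0.15, without WT replicate 2.

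Of the 5 surface and adhesion genes, 4 were higher, and their median log2 fold change was 0.22. Mog, at chr17:37010740-37023398, encodes a glycoprotein of the outermost myelin surface that appears late in maturation. It was measured at 293, 339 and 298 CPM in WT and at 369.9, 370.2 and 388 CPM in those labelled Rag1-/-, a log2 fold change of 0.28 (SE 0.060, limma-trend adjusted p = 0.258). WT replicate 2 was the highest WT library and still lay below all those labelled Rag1-/-. Mag encodes the glycoprotein that faces the axon in the innermost myelin layer. Its values were 840.4, 948 and 870.3 CPM in WT and 1015, 995 and 1082 CPM in those labelled Rag1-/- (log2 fold change 0.22, SE 0.060, limma-trend adjusted p = 0.335). The groups did not overlap, with a narrow gap between WT replicate 2 and the lowest library labelled Rag1-/-.

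Opalin encodes a small glycoprotein found in oligodendrocytes of the central nervous system. It was at 51.9, 52.8 and 46.6 CPM in WT and at 58.1, 61.9 and 58.9 CPM in those labelled Rag1-/-, a log2 fold change of 0.24 (SE 0.058, limma-trend adjusted p = 0.300). Nfasc encodes neurofascin, whose glial form binds the axon beside the node of Ranvier and whose neuronal form sits at the node itself, and these values do not separate the forms. Its level was 706, 733 and 724 CPM in WT and 742, 793 and 837 CPM in those labelled Rag1-/- (log2 fold change 0.13, SE 0.053, limma-trend adjusted p = 0.410). The groups of Opalin were clearly apart, whereas those of Nfasc nearly touched, and the p of Nfasc was above 0.05 when WT replicate 1, 2 or 3 or replicate 2 or 3 labelled Rag1-/- was left out, with log2 fold changes from 0.090 to 0.18 over all 6 omissions. It was also above 0.05 with a replicate block, with a term for Xist and without the limma trend. Efnb3, an ephrin of the cell surface, had a log2 fold change of 0.033 (95% interval -0.077 to 0.14).

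Among the 6 genes of the cytoskeleton and of process growth, 3 were higher and the median log2 fold change was 0.19. Sirt2, at chr7:28766752-28788665, encodes a deacetylase of tubulin that is abundant in myelin, and had the smallest p of the 38 genes. It was measured at 253, 269 and 274 CPM in WT and at 341, 341 and 333 CPM in those labelled Rag1-/-. The libraries labelled Rag1-/- lay close together and far above the WT range. The log2 fold change was 0.35 (SE 0.044), or 27.5% above WT, with a limma-trend adjusted p of 0.0523. Over the 15 alternatives the adjusted p ran from 0.0281 without WT replicate 3 to 0.357 with a replicate block.

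Gsn encodes gelsolin, which severs actin filaments. It had 300.0, 349.8 and 339 CPM in WT and 408, 416 and 444 CPM in those labelled Rag1-/-, a log2 fold change of 0.36 (SE 0.064, limma-trend adjusted p = 0.211), the highest of the 38. The groups were well apart. WT replicate 1 was low, and without it the log2 fold change was 0.29. Cnp, at chr11:100574939-100581739, encodes the phosphodiesterase CNPase, which keeps the cytoplasmic channels of myelin open. Its level was 1428, 1498 and 1479 CPM in WT and 1665, 1754 and 1819 CPM in those labelled Rag1-/- (log2 fold change 0.25, SE 0.054, limma-trend adjusted p = 0.268). The WT libraries were close together and all below those labelled Rag1-/-. Ermn (log2 fold change 0.12), which encodes ermin, Ppp1r14a (0.12), an inhibitor of a myosin phosphatase, and Anln (0.025), which encodes the actin-binding protein anillin, did not pass p of 0.05, and in each WT replicate 2 was the highest library and WT replicate 3 the lowest. The value of Ermn was 0.023 without WT replicate 3 and 0.23 without WT replicate 2, and that of Ppp1r14a was 0.011 and 0.21. Without WT replicate 2, and with a term for Xist, both passed p of 0.05.

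The 7 genes of lipid synthesis and metabolism split. The 3 enzymes that make myelin galactolipids were higher and the other 4 did not pass the threshold, and the median log2 fold change of the group was 0.025. Gal3st1, which adds the sulfate of sulfatide, was at 50.3, 54.6 and 46.4 CPM in WT and at 59.8, 57.4 and 60.9 CPM in those labelled Rag1-/- (log2 fold change 0.24, SE 0.062). Fa2h makes the 2-hydroxy fatty acids of these lipids. Its level was 193, 213 and 181 CPM in WT and 227, 217 and 231 CPM in those labelled Rag1-/- (log2 fold change 0.21, SE 0.061). The groups did not overlap for either gene. Ugt8a, which makes galactosylceramide itself, was at 297, 359 and 275 CPM and at 365, 349.7 and 389 CPM (log2 fold change 0.25, SE 0.091). WT replicate 2 lay within the range of the libraries labelled Rag1-/-, and p was above 0.05 without WT replicate 1 or 3 or without replicate 1 or 3 labelled Rag1-/- (log2 fold change 0.17 to 0.36 over all 6 omissions), and also without the limma trend. The limma-trend adjusted p was 0.328, 0.340 and 0.374 for Gal3st1, Fa2h and Ugt8a.

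The other 4 gave values near 0 or with wide intervals. The log2 fold change was 0.0078 (95% interval -0.28 to 0.30) for Aspa, which breaks down N-acetylaspartate, and 0.025 (-0.18 to 0.23) for the carbonic anhydrase Car2. It was 0.025 (-0.19 to 0.24) for the lipid carrier Apod and -0.10 (-0.30 to 0.093) for Qdpr, which recycles tetrahydrobiopterin. The interval of Aspa is wide enough to hold the changes of Mog or Cnp, and its value was -0.15 without WT replicate 3 and 0.33, past p of 0.05, with a term for Xist. Without WT replicate 3 Car2 was at -0.068. Without WT replicate 3 the value of Qdpr was -0.20 with p under 0.05, the one case over the 15 alternatives in which any of the 38 genes was lower at that threshold. That of Qdpr was -0.022 without WT replicate 2.

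Neither of the 2 gap junction genes, Gjb1 and Gjc3, which encode connexins, passed p of 0.05, with log2 fold changes of 0.13 (-0.11 to 0.37) and 0.024 (-0.14 to 0.18). That of Gjb1 was 0.042 without WT replicate 3 and 0.24, past p of 0.05, without WT replicate 2, and it was 0.074 and 0.22 without replicate 1 and without replicate 2 labelled Rag1-/-, in that order. With a term for Xist, Gjb1 (0.31) and Gjc3 (0.17) both passed p of 0.05. As reported without that term, the 2 transcription factors did not pass p of 0.05 either. Myrf, at chr19:10208271-10240748, drives the myelin genes of maturing oligodendrocytes. It was measured at 176, 193 and 176 CPM in WT and at 181, 173 and 200.5 CPM in those labelled Rag1-/-, a log2 fold change of 0.022 (95% interval -0.12 to 0.16, limma-trend adjusted p = 0.911). The groups lay across each other, and the interval ends below the log2 fold changes of Mbp, Mog, Cnp and Sirt2. It overlaps the intervals of Mbp (0.11 to 0.59), Mog (0.15 to 0.42) and Cnp (0.13 to 0.37). Whether Myrf changed less than these genes was not tested. Nkx6-2, a homeobox factor of oligodendrocytes, was at 40.7, 41.0 and 36.0 CPM in WT and at 47.9, 40.03 and 43.4 CPM in those labelled Rag1-/- (log2 fold change 0.16, 95% interval -0.018 to 0.33, limma-trend adjusted p = 0.471). Replicate 2 labelled Rag1-/- lay within the WT range. The value was 0.090 without replicate 1 labelled Rag1-/- and 0.10 without WT replicate 3. It passed p of 0.05 under median-of-ratios rescaling (0.20), quantile normalization (0.21) and a term for Xist (0.28), and without replicate 2 labelled Rag1-/- (0.22).

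Of the 2 receptors, Lpar1, a receptor for lysophosphatidic acid, was at 117, 117 and 112 CPM in WT and at 132, 138 and 137 CPM in those labelled Rag1-/-. The groups were narrow and apart, and the log2 fold change of 0.23 (SE 0.039, limma-trend adjusted p = 0.190) ran from 0.22 to 0.25 as each library was left out. Gpr37, an orphan receptor that restrains oligodendrocyte maturation, had a log2 fold change of 0.043 (-0.14 to 0.22), and of 0.20, past p of 0.05, with a term for Xist.

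Among the 7 remaining genes, 3 were higher, with a median of 0.11. Adamts4, a protease found in mature oligodendrocytes, was at 155, 160.0 and 147 CPM in WT and at 168, 183 and 182 CPM in those labelled Rag1-/- (log2 fold change 0.20, SE 0.050, limma-trend adjusted p = 0.319). Evi2a encodes a membrane protein and was at 48.3, 52.1 and 43.5 CPM and at 56.4, 53.7 and 52.5 CPM in those groups (log2 fold change 0.18, SE 0.068, limma-trend adjusted p = 0.392). The groups of both genes were apart, by a small margin for Evi2a, which lies inside Nf1 on the opposite strand and shares 19.2% of its exon bases with Evi2. Josd2, a deubiquitinase, was at 58.1, 59.2 and 57.5 CPM and at 64.9, 59.7 and 63.9 CPM (log2 fold change 0.11, SE 0.046, limma-trend adjusted p = 0.429). The gap between its groups was narrow. The p of Evi2a was above 0.05 without WT replicate 1 or 3 or without replicate 1 or 2 labelled Rag1-/- (log2 fold change 0.11 to 0.24 over all 6 omissions), and that of Josd2 without any 1 library other than replicate 2 labelled Rag1-/- (0.083 to 0.14). Without the limma trend the p of both was above 0.05, and that of Josd2 also with a replicate block and with a term for Xist. Trim59 had a log2 fold change of 0.29 (SE 0.15, limma-trend adjusted p = 0.493), with WT replicate 3 far below the other WT libraries, and of 0.079 without that library. Without WT replicate 1 or 2 it was 0.39 or 0.40 and passed p of 0.05. Tmem88b (0.068), the small heat shock gene Cryab (-0.012) and the stress gene Ndrg1 (-0.057) did not pass p of 0.05, and Cryab was above 0 under both rescalings. With 1 library left out, Ndrg1 ran from -0.097 to -0.0038. With a term for Xist, which leaves WT replicate 3 as the only WT library compared, Tmem88b was at 0.24 and Trim59 at 0.71. On the opposite strand, Gm42413 shares 21.1% of the exon bases of Qdpr, Hspb2 19.5% of those of Cryab and Galnt5 6.52% of those of Ermn. Gm17035 shares 14.5% and Gm2895 4.74% of those of Ndrg1, and Tspan2os 1.92% of those of Tspan2. The values of these genes carry the same doubt about strand as Pllp.

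**Figure D2:**
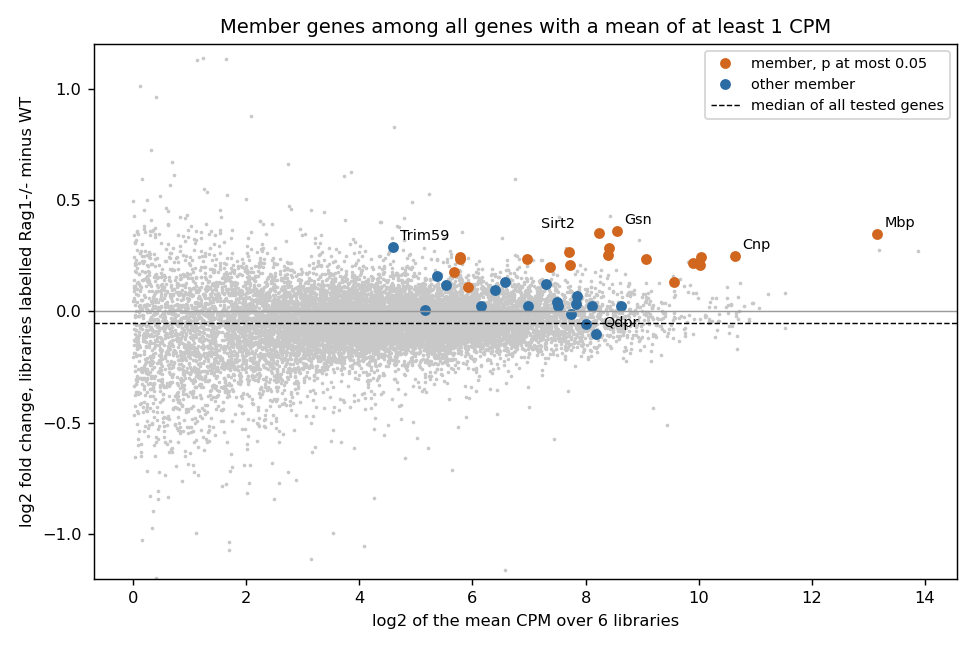
Log2 fold change (libraries labelled Rag1-/- minus WT) against the log2 of the mean CPM over the 6 libraries for genes that averaged 1 CPM or more, with the 38 genes as large points, orange for p of at most 0.05 and blue otherwise, all other genes as grey points and the median of all tested genes as a dashed line. Of 14033 genes, 22 lie beyond the vertical range of 1.2 and are not drawn. The orange points range from 0.11 to 0.36 and the blue ones from -0.10 to 0.29.

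The order of the libraries is given for the 18 genes that did not pass p of 0.05 and for the 20 that did. The split by p itself limits which library can be highest or lowest, so these sets are not compared. WT replicate 2 was the highest of the 6 libraries for 12 of the 18, WT replicate 3 was the lowest for 12 and replicate 2 labelled Rag1-/- for 5. Among the 20 genes that were higher, WT replicate 3 was the lowest for 11 and WT replicate 1 for 9, and replicate 3 labelled Rag1-/- was the highest for 11. Within WT, replicate 2 was the highest for 35 of the 38 and replicate 3 the lowest for 27. By this order within WT, the spread among the WT mice was shared by most of the genes, and the 38 values are not independent readings. The median log2 fold change over the 38 genes was 0.10 without WT replicate 3 and 0.23 without WT replicate 2. Of the 38, 16 and 23 were then higher, against 2.33% and 2.35% of all tested genes. A term for Xist leaves WT replicate 3 as the only WT library to compare with. With that term the median was 0.27 over the 38 genes and -0.052 over all tested genes. Sex cannot be fully told apart from genotype here, and the part of the pituitary tissue in WT replicate 3 was not tested.

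**Figure D3:**
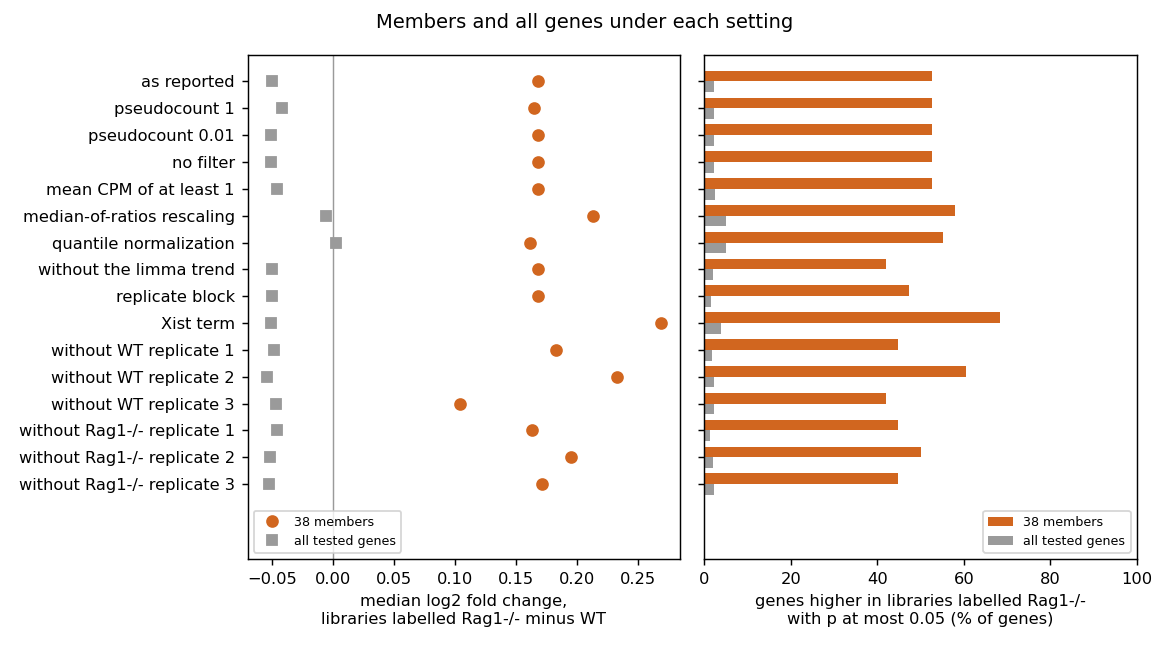
Left, the median log2 fold change (libraries labelled Rag1-/- minus WT) over the 38 genes (orange circles) and over all tested genes (grey squares) as reported and under each of the 15 alternatives; right, the percent of the 38 genes and of all tested genes that were higher at an unadjusted p of at most 0.05. The median of the 38 stays between 0.10 and 0.27 and that of all genes between -0.054 and 0.0022. Every orange bar is at 42.1% or more and every grey bar at 5.1% or less. The bars for the term for Xist rest on WT replicate 3 as the only WT library.

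The 38 genes can be set beside other genes of the lineage. Of all tested genes 2.27% were higher and 9.29% lower at an unadjusted p of 0.05 or less in limma-trend, shares that stand beside the counts here. Of 24 further myelin genes, 4 were higher and 1 lower, with a median log2 fold change of 0.030. Those that were higher were Gamt, an enzyme of creatine synthesis, at 43.5, 44.8 and 46.4 CPM in WT and 53.6, 54.0 and 52.1 CPM in those labelled Rag1-/- (log2 fold change 0.24, SE 0.045, limma-trend adjusted p = 0.212), Cd9 (0.12), Bcas1 (0.18) and Plxnb3 (0.16). The groups of Gamt did not overlap. Cntn2, an adhesion protein of the region beside the node, was lower (-0.13, limma-trend adjusted p = 0.415). Of 17 genes of the ceramide and galactolipid pathway, 4 were higher and 0 lower, with a median of -0.0019. They were the glycolipid carrier Gltp (0.23), the very-long-chain ceramide synthase Cers2 (0.17), the desaturase Degs1 (0.11) and the elongase Elovl1 (0.19).

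Of 10 transcription factors of the lineage, 5 were higher and 0 lower, with a median of 0.14. Beside this count and that of precursor genes below stand 2.27% of all tested genes higher and 9.29% lower. Sox10, which acts throughout the lineage, was at 112, 109 and 95.3 CPM in WT and at 117, 119.5 and 127 CPM in those labelled Rag1-/- (log2 fold change 0.20, SE 0.066, limma-trend adjusted p = 0.362), and Olig1 at 368, 394 and 407 and 440.5, 439 and 434 CPM (0.17, SE 0.047, limma-trend adjusted p = 0.335). Neither overlapped between the groups. Zeb2 (0.18), Nkx2-2 (0.16) and Zfp488 (0.27) were the other 3. Of 10 genes of precursor and premyelinating cells, 4 were higher and 0 lower, with a median of 0.072. Gpr17, a receptor of the premyelinating stage, was at 176, 176 and 193 CPM in WT and at 209, 228 and 228 CPM in those labelled Rag1-/- (0.29, SE 0.054, limma-trend adjusted p = 0.221). Enpp6, an enzyme of newly forming oligodendrocytes, was at 45.3, 54.5 and 48.9 and 62.1, 59.7 and 68.2 CPM (0.35, SE 0.076, limma-trend adjusted p = 0.259). Both genes were apart between the groups, and Bmp4 (0.30) and Itpr2 (0.14) were the remaining ones. The other 6 of the 10, named here after their values were seen, did not pass p of 0.05: Neu4 (0.093), Vcan (0.051), Ptprz1 (0.0085), C1ql1 (-0.016), Pdgfra (-0.047) and Cspg4 (-0.14). The unadjusted p of Cspg4 was just above the threshold, with all libraries labelled Rag1-/- below all WT ones. None of the genes named from these lists had an adjusted p under 0.05 in limma-trend.

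Genes of the axon at and beside the node of Ranvier, the neuronal partners of myelin, gave 0 higher and 2 lower of 9, with a median of -0.036: Nrcam (-0.086, limma-trend adjusted p = 0.428) and Cntnap2 (-0.15, limma-trend adjusted p = 0.362). At the same threshold 9.29% of all tested genes were lower as deposited, 4.13% with median-of-ratios rescaling and 3.82% with quantile normalization, shares that also stand beside the counts of lower genes below. Of 10 neuron markers and 10 microglia markers, 0 passed p of 0.05 in either direction in limma-trend, with medians of -0.0099 and -0.038. Of 10 astrocyte markers 1 was higher, the water channel Aqp4 (0.19), beside 2.27% of all tested genes. The median of the astrocyte markers was 0.028, and 3 of them were below 0. Of 8 endothelial markers 1 was lower, the cadherin Cdh5 (-0.16), with a median of -0.067. Markers of Schwann cells, which make the myelin of cranial nerve roots, summed to 133, 125 and 160.0 CPM in WT and to 195, 105 and 169.9 CPM in those labelled Rag1-/-. These sums overlapped, and of 10 tested genes 0 were higher and 1, Ngfr (-0.44), was lower. Choroid plexus markers gave 0 higher and 2 lower of 8 (Otx2, -0.41, and Clic6, -0.45), and pituitary markers 0 higher and 4 lower of 6 (Gh, Prl, Cga and Lhb). The part of these tissues in the values of the 38 genes was not tested. Without WT replicate 3, the WT library with the most pituitary and the least choroid plexus transcripts, 16 of the 38 genes were higher, against 2.33% of all tested genes, and the median log2 fold change over the 38 was 0.10.

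**Figure D4:**
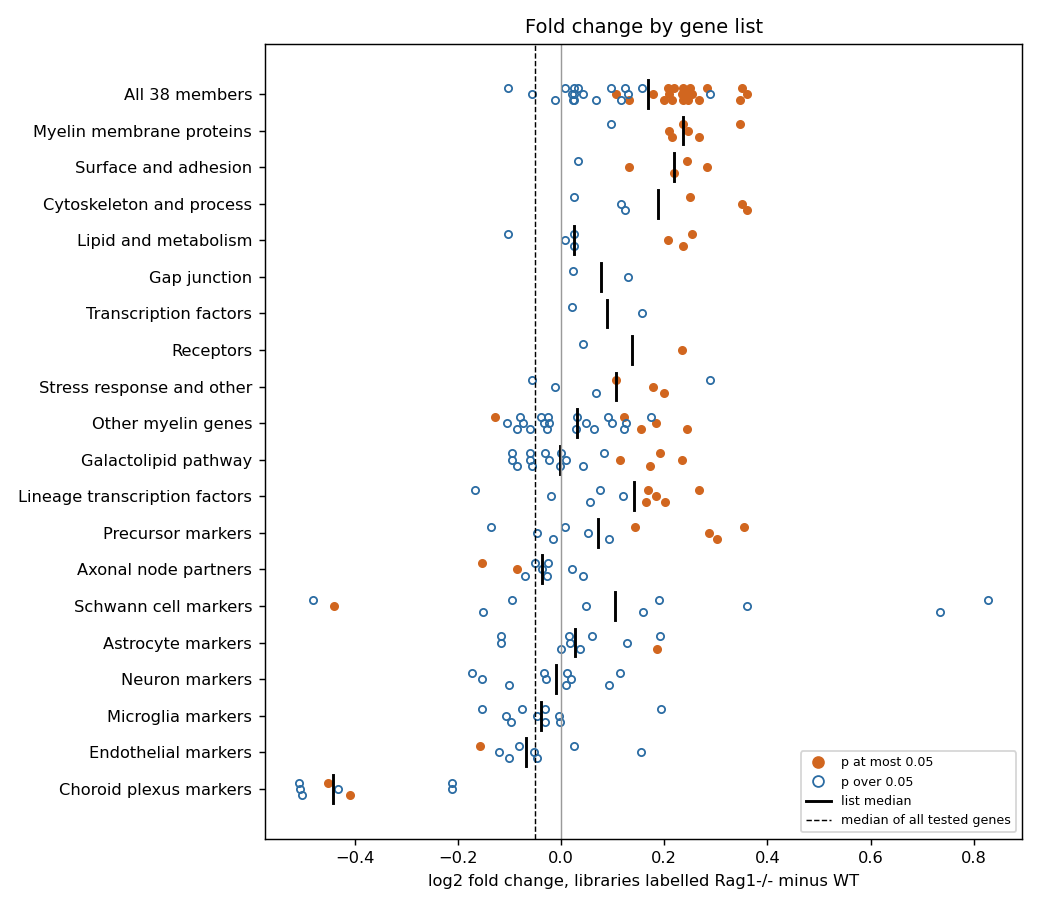
Log2 fold change (libraries labelled Rag1-/- minus WT) of each tested gene by list, one point per gene with p of at most 0.05 marked by colour and the median of each list as a bar. The lists of lineage factors and precursor genes have medians of 0.14 and 0.072, those of node partners, neurons, microglia and endothelium lie from -0.067 to -0.0099, and the pituitary list is not drawn.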

How the data were processed

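RNA of 6 brainstems was sequenced. Per the labels and the study's methods, the authors aligned reads to mm10 with STAR (version 2.5.3a in the submitters' processing notes), counted them on RefSeq transcripts in Partek Flow and deposited CPM values with 0.0001 added. Library strandedness is not given in the sources used here. Depth was taken from the value of 1 read, read off low values. Whole reads were not recovered (85.9% to 87.4% of low values were whole within 0.1 read), so no count test was run. Groups were taken from the sample titles.

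From the deposited CPM, log2(CPM + 0.1) was computed. Genes averaging 0.1 CPM or more (16762) were compared with limma-trend (limma 3.58.1, R 4.3.3) with Benjamini-Hochberg adjustment over all of them, and 1296 genes were not tested. Fold changes are on the log2(CPM + 0.1) scale. Exact permutation of 3 against 3 libraries cannot give a p below 0.1. The test was checked on simulated data. The 38 genes and the other lists were chosen with earlier results of these data known. All 38 were named, with values by library for those with p of at most 0.05, 8 structural genes and 2 transcription factors. From the other lists, genes with p of at most 0.05 and up to 3 of smallest p were eligible. Gene coordinates are those of the deposited table (mm10), with the end 1 base before the deposited stop, and exon overlaps come from GENCODE M21. The alternatives were other pseudocounts, filters, scalings and variance models, a replicate block, a term for Xist and leaving out each library in turn. A further myelin gene is not reported here.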

Additional observations from a re-analysis of the deposited data

How the results depend on the processing

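The alternatives other than the term for Xist left 16 to 23 of the 38 genes higher. The shares of all tested genes that were higher were then 1.45% to 5.1%. Of single-gene values, 315 of those from alternatives with all libraries kept their direction and side of the threshold, as did 182 of those with 1 library left out. Of the rest, 10 and 18 lost p of 0.05, 13 and 8 gained it, and 4 and 20 changed direction, in the same order. Adjusted p in limma-trend was under 0.05 for 1 gene with median-of-ratios rescaling (Sirt2, 0.0343) and for 2 with a term for Xist (Opalin and Trim59, smallest 0.00842). It was so for 0 to 1 genes with 1 library left out (Sirt2 without WT replicate 3, 0.0281), and the count of genes that were lower was 0 to 1 (Qdpr, also without WT replicate 3). The count that was higher was 16 to 23 with 1 library left out. The median log2 fold change was 0.27 with the term for Xist and 0.10 to 0.23 with 1 library left out. Directions turned for Cryab at 0.033 with median-of-ratios rescaling, 0.017 with quantile normalization and 0.020 with the term for Xist, and for Qdpr at 0.085 with the term for Xist. With 1 library left out, the log2 fold change ran from -0.060 to 0.14 for Anln, -0.058 to 0.12 for Apod, -0.040 to 0.041 for Cryab, -0.15 to 0.15 for Aspa, -0.068 to 0.11 for Car2, -0.050 to 0.093 for Gjc3, -0.034 to 0.13 for Gpr37, -0.019 to 0.14 for Tmem88b, -0.0054 to 0.068 for Efnb3 and -0.038 to 0.069 for Myrf. The cause was not tested. The replicate numbers were not found to pair the libraries: same-numbered deviations correlated at 0.0926, -0.220 and -0.0183, and not every library correlated best with its own number. With a replicate block, Nfasc and Josd2 lost p of 0.05, 18 genes were higher and 0 had an adjusted p under 0.05. At this depth the counting error of the 38 genes was at most 4.23% in any library.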
